A study of Mus musculus with 71 samples.

Results

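The T-box genes examined were 8 in number, Tbx1, Tbx2, Tbx3, Tbx4, Tbx5, Tbx15, Tbx18 and Tbx20, and their chromatin loops were those with an anchor within 2 kb of a transcription start site (TSS) of the gene in the GENCODE annotation. Of the 24244 loops in the list, 17 met this rule, with 89 of 41574 paired-end tags. The loops came from H3K27ac HiChIP, which enriches contacts between chromatin fragments that carry this acetyl mark of active promoters and enhancers. The samples were 2 mouse synovial sarcomas (SyS) expressing human SS18::SSX2, denoted hSS2, and no normal tissue or other genotype entered the HiChIP. They were initiated in the hindlimb by injection of TATCre protein at day 8 of life. The mice of the study were of a mixed CB57Bl/6-svJ background and 2 to 6 months old, which is given for the study and not for these tumors. TATCre is a cell-permeant recombinase that is not restricted to a cell type, and the tumors were dissociated to single cells before crosslinking without a sort, so host cells of the tumor could contribute loops. The authors merged both tumors into a single list without tumor labels, so no values were taken as replicates and no test between samples was made. Intervals on tag sums are exact Poisson 95% intervals and those on shares are Wilson 95% intervals, and both cover counting error only.

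T-box factors bind DNA through the conserved T-box domain and switch genes on or off during the patterning of the limb, heart and pharyngeal arches. Tbx2 and Tbx3 act mainly as repressors, Tbx5 mainly as an activator, and in the limb Tbx5 is known for the forelimb and Tbx4 for the hindlimb. Several of these genes lie in large gene-poor domains in which enhancers act over long distances, and Tbx3 with Tbx5, and Tbx2 with Tbx4, are neighboring pairs.

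Nearly all of the signal at these genes was assigned to Tbx3, and 3 kinds of anchor carried it, at the promoter, past the 3′ end of the gene and far upstream. The middle 300 bases of the main promoter anchor and of the remote anchor are shown here from the plus strand of GRCm38 (mm10), with CpG dinucleotides in capitals, because a loop of 6 tags joins these places over 794.0 kb. The promoter window lies in an intron of the antisense gene Tbx3os1 just upstream of Tbx3, and the remote window is intergenic, beside the lincRNA gene Gm43782.
Tbx3 promoter anchor, chr5:119669332-119669631: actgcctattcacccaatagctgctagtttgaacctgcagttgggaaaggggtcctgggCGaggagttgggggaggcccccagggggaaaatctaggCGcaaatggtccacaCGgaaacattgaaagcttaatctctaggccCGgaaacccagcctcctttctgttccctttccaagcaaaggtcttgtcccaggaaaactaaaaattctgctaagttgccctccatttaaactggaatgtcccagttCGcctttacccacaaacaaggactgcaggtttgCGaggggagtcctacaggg
Gm43782 anchor, chr5:118875347-118875646: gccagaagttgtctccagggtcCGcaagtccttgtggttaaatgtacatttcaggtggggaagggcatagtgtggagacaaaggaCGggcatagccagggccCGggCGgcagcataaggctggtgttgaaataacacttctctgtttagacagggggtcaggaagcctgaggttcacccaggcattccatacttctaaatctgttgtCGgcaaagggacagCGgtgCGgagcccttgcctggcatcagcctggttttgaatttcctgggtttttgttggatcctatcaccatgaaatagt
These windows held 6 and 7 CpG dinucleotides respectively, both below the median of 14 in the middle 300 bases of the 16864 distinct anchors of the list. The promoter anchor as a whole was not poor in CpG, with 50.3 per kb against an upper quartile of 45.6 over all anchors. Neither 300-base window held the T-box core motif AGGTGTGA on either strand, which 0.729% of such windows did.

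At least 1 loop was found for 3 of the 8 genes (37.5%), against 45.8% of the 21951 protein-coding genes, so the share in the family was below that over all such genes and was not tested. The median loop score, the sum of tags over the loops of a gene, was 0 tags for the 8 genes and 0 tags for all protein-coding genes. Tbx3 was the gene that stood apart, with 86 of the 89 tags. A loop of at least 4 tags was found for 1 of the 8 genes, Tbx3, against 8.51% of protein-coding genes. At an FDR under 0.01 Tbx3 was the 1 looped gene left, with 7 loops and 78 tags.

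Tbx3 (ENSMUSG00000018604.18, chr5:119670669-119684724, plus strand) is a repressor needed for limb, mammary gland and cardiac conduction system development. It had 14 loops and a loop score of 86 tags (68.8 to 106). Its score ranked 49th among the 10050 looped protein-coding genes, tied with 1 other gene, and 99.5% of these genes had a lower score. The median over looped protein-coding genes was 4 tags. Neither the rank nor this comparison took span into account. Of the 86 tags, 60 lay in 3 loops of under 20 kb, a span at which listed loops have more tags.

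Tbx15 (ENSMUSG00000027868.11, chr3:99240381-99354259, plus strand), which acts in skeletal and adipose development, had 2 loops of 1 tag each and a loop score of 2 tags (0.242 to 7.22). Tbx2 (ENSMUSG00000000093.6, chr11:85832551-85841948, plus strand), the closest relative of Tbx3, had 1 loop of 1 tag (0.0253 to 5.57). The Tbx3 interval did not overlap any of the others, whereas the intervals of Tbx15, Tbx2 and the unlooped genes overlapped each other. Per kb of promoter-side anchor, the scores were 10.9 tags for Tbx3, 1.08 for Tbx15 and 0.414 for Tbx2, which is the same order.

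No loop was assigned to Tbx1 (chr16:18580979-18590671, minus strand), a factor of the pharyngeal arches and outflow tract. None was assigned either to the limb factors Tbx4 (chr11:85886422-85916097, plus strand) and Tbx5 (chr5:119832668-119885219, plus strand). The same held for Tbx18 (chr9:87702800-87731260, minus strand), known from the epicardium and sinus node, and Tbx20 (chr9:24718138-24774303, minus strand), known from the heart chambers. At a count of 0 the exact Poisson interval reaches 3.69 tags, which covers counting error only and is not a detection limit. The list holds only called loops, and the fewest tags of a listed loop changed with its span. In the first of the 2 separately sorted parts of the list, it was 8 tags near 20 kb, 6 near 100 kb and 1 near 400 kb. Contacts at these 5 promoters that fell short of a call would not be listed.

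**Figure D1:**
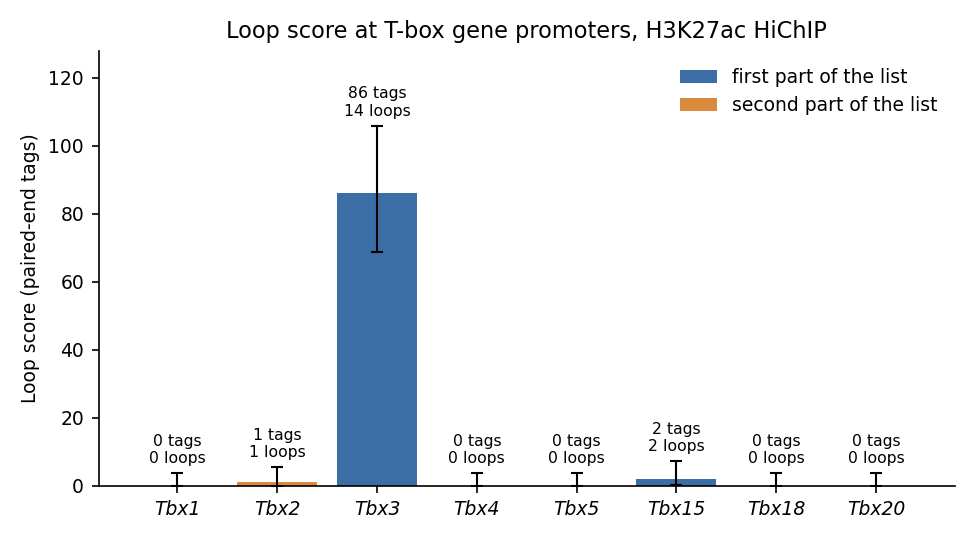
Loop score in paired-end tags at the promoters of the 8 T-box genes, stacked by the part of the merged list that holds the loop, with exact Poisson 95% intervals. Tbx3 reached 86 tags in 14 loops, Tbx15 had 2 tags, Tbx2 had 1 and the remaining 5 genes had 0.

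The merged list consisted of 2 parts sorted separately by position, and the second part held 31.1% of all tags. Whether each part holds the loops of 1 tumor is not stated, and the parts were not assigned to a tumor here. All 86 tags of Tbx3 and both tags of Tbx15 lay in the first part, and the tag of Tbx2 lay in the second. None of the 8 genes had loops in both parts, against 24.3% of protein-coding genes. Of 160 protein-coding genes with at least 50 tags in the first part, 9 had no tag in the second (5.62%), and Tbx3 was 1 of these. In the second part, the nearest anchor to a Tbx3 TSS was 436 kb away at Rbm19, an RNA-binding protein gene, with 1 tag. The Tbx3 loops therefore come from a single part of the list, and how much of this reflects the second part's lower depth was not tested. If the parts are the tumors, these loops come from 1 tumor, which cannot be told from the list.

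The Tbx3 side of its loops fell on 3 anchors. The first, chr5:119668330-119670634, ended just upstream of the main TSS and also lay within 2 kb of a TSS of Tbx3os1. It carried 9 loops and 41 tags, or 17.8 tags per kb of anchor. The second, chr5:119671800-119673293, lay inside the gene just past the start and was likewise within 2 kb of a Tbx3os1 TSS. It carried 3 loops and 24 tags, or 16.1 tags per kb. The third, chr5:119678184-119682288, lay further into the gene and carried 2 loops and 21 tags, or 5.12 tags per kb. It counted toward Tbx3 through the start of an internal processed transcript, and with protein-coding or with RefSeq transcripts the Tbx3 score was 65 tags in 12 loops. By the 2 kb rule Tbx3os1 also had 12 loops and 65 tags, those of the first and second anchors. These loops therefore cannot be told apart between Tbx3 and its antisense gene.

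The most tags joined these 3 anchors to the same place just past the 3′ end of Tbx3. This 3′ anchor, chr5:119685141-119688264, was centered 16.03 kb downstream of the TSS, inside Tbx3os2, and had no TSS within 2 kb. It had 26 tags with the anchor upstream of the TSS (FDR 6.57e-12), which was the strongest loop of any T-box gene. It had 20 tags with the second anchor (FDR 7.47e-07) and 14 with the third (FDR 0.00469). Together these loops of under 20 kb held 60 tags, or 69.8% of those of Tbx3, whereas loops of under 20 kb held 14.8% of all tags in the list.

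Short loops have more tags, so each was set beside the loops of the same part of the list with a span within 10%. The 26-tag loop spanned 17.22 kb, and 3 of 58 such loops had at least as many tags, itself included. For the 20-tag loop, which spanned 14.16 kb, it was 4 of 62. The 14-tag loop, at 6.466 kb, was ordinary for its span, with 23 of 44 loops at or above it and a median of 14 tags.

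The next strongest contact was with a remote anchor far upstream. The anchor chr5:118874522-118876472 was centered 795.2 kb upstream of the Tbx3 TSS and overlapped the lincRNA gene Gm43782, within 2 kb of its TSS (chr5:118875811-118877465, minus strand). It was joined by 6 tags to the anchor upstream of the TSS (FDR 9.66e-14), by 3 to the second anchor (FDR 5.58e-06) and by 7 to the third (FDR listed as 0). These 16 tags were 18.6% of the Tbx3 score. Between this anchor and Tbx3, 12 annotated genes start, none of them protein-coding.

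Few loops of this span had as many tags. The first part held 1669 loops that spanned 700 to 900 kb, and of these 87.8% had a single tag and 5 had at least 6. For the 6-tag loop, which spanned 794.0 kb, 5 of 1355 loops with a span within 10% had at least as many tags, itself included. These 5 also included the 7-tag loop and an 8-tag loop of 811.2 kb, both from the same Gm43782 anchor. For the 7-tag loop, at 804.7 kb, it was 2 of 1336, itself and that 8-tag loop. For the 3-tag loop, at 797.0 kb, it was 28 of 1357. The loops of the Gm43782 anchor are thus not separate observations. In the second part, 714 loops spanned 700 to 900 kb and none had more than 2 tags.

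**Figure D2:**
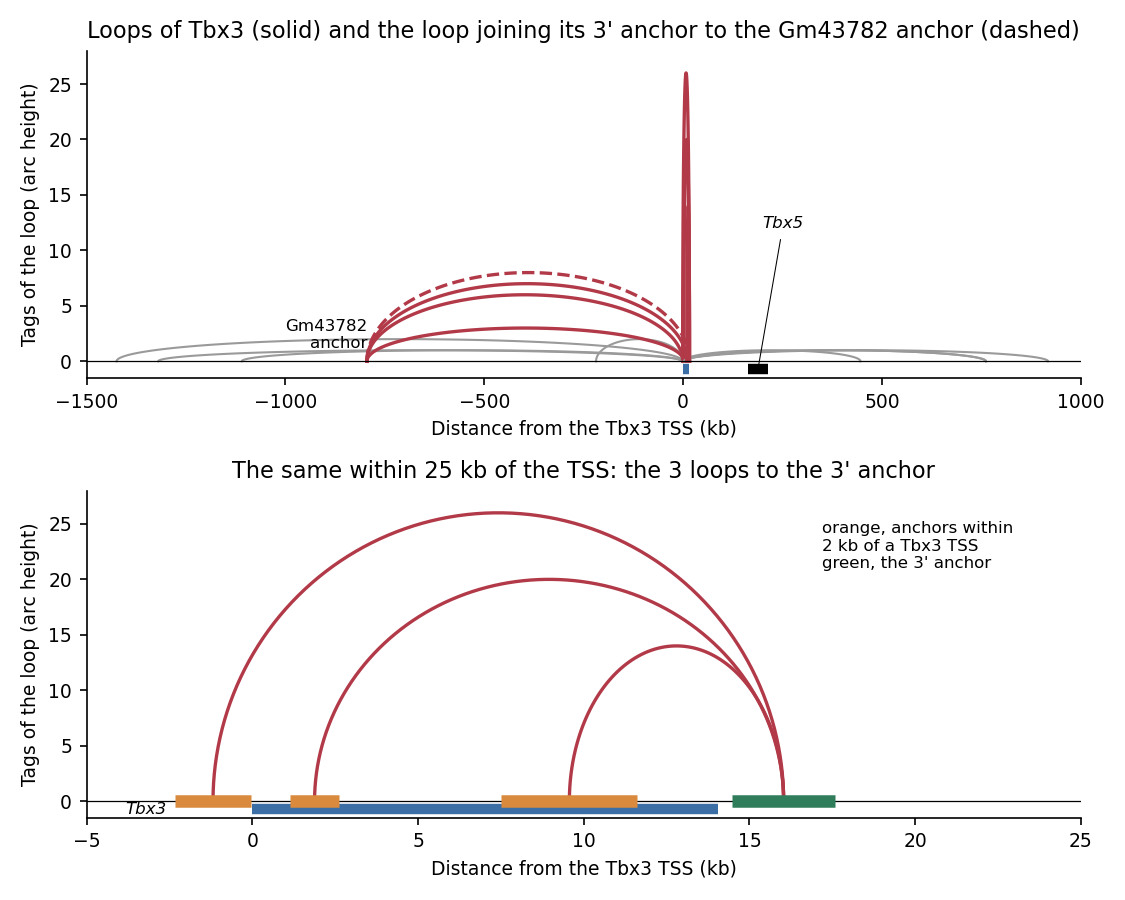
Loops of Tbx3 by distance from its TSS in kb, with arc height giving the tags of the loop. Red arcs have at least 3 tags, gray arcs have 1 or 2, and the dashed arc is the 8-tag loop that joins the 3′ anchor to the Gm43782 anchor without touching a Tbx3 promoter anchor. The upper panel shows the 16 tags reaching 795.2 kb upstream, with no arc ending at Tbx5 (black bar), and the lower panel shows the 26-, 20- and 14-tag loops to the 3′ anchor, with the Tbx3 gene in blue.

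**Figure D3:**
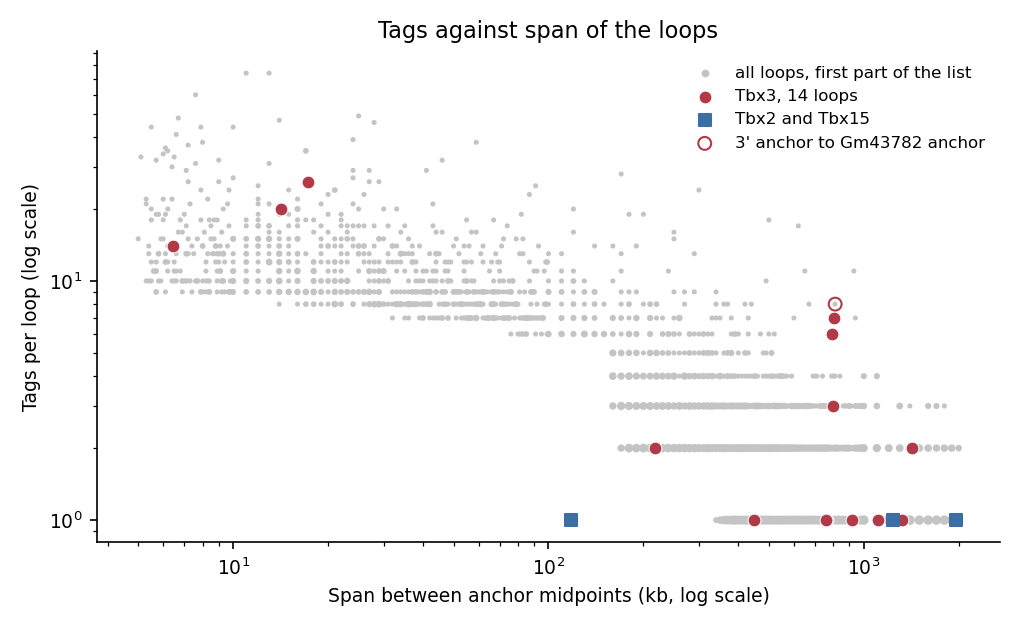
Tags per loop against the span between anchor midpoints, both on log scales, for the loops in the first part (gray, larger where more loops share a point), with the loops of Tbx3 in red and those of Tbx15 and Tbx2 as blue squares. The Tbx2 loop is from the second part. The Tbx3 loops of 6 and 7 tags near 800 kb lie above nearly all gray points of that span, while the 14-tag loop at 6.466 kb lies among them.

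The other 8 loops of Tbx3 held 10 tags, and 6 of them had a single tag. The one with the lowest FDR (0.000379) had 2 tags and reached 1424 kb to the shared promoter of Rnft2, a ring-finger protein gene, and 2410131K14Rik. A loop of 2 tags reached an anchor 218.9 kb upstream that had no TSS nearby. Single tags reached Med13l, a subunit gene of the Mediator kinase module, Rbm19, the promoter of Iqcd and Tpcn1, and an anchor without a TSS 1320 kb upstream. Lhx5, a LIM homeobox gene, was reached by 1 tag from each of the first and second anchors, and its anchor also had 1 tag with the Gm43782 anchor. Over all 14 loops, 7 loops with 22 tags ran upstream of the TSS and 7 loops with 64 tags ran downstream, and 60 of the downstream tags were those of the 3′ anchor.

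The loops of Tbx15 were longer and weaker. Both started from an anchor at chr3:99253097-99254952, at an internal Tbx15 TSS, with 50.1 CpG dinucleotides per kb. One reached Notch2, the Notch receptor gene, over 1239 kb, and the other reached Bcl9, a coactivator of β-catenin, over 1956 kb. Each had 1 tag and an FDR of 0.0262.

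The loop of Tbx2 ran from chr11:85831479-85833891, which also lies within 2 kb of a TSS of 2610027K06Rik, over 118.3 kb upstream to an anchor without a TSS. It had 1 tag and an FDR of 0.0394. Of the looped protein-coding genes, 20.5% had a loop score of 1 tag, as Tbx2 did.

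Of the 12 distinct distal anchors of the family, 8 were within 2 kb of a TSS of another gene, or 66.7% (39.1 to 86.2). Over all looped protein-coding promoters the share was 11864 of 14976 (79.2%), which lies inside that interval. The 4 anchors without a TSS were the 3′ anchor of Tbx3, 2 more anchors of Tbx3 and the anchor of Tbx2. By tags the picture differed from that by anchors, because the 3′ anchor, without a TSS within 2 kb, alone held 60 of the 89 tags. The share by tags over all looped promoters was not computed.

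No loop joined a pair of T-box genes, and the neighboring pairs were unequal. The nearest anchor to a Tbx5 TSS was the 3′ anchor of Tbx3 at 144 kb, and 7 loops passed over the Tbx5 start without an anchor there. The nearest anchor to a Tbx4 TSS was one inside the Tbx2 gene at 47.6 kb, and 17 loops passed over. Tbx5 had no anchor of any loop within 100 kb and Tbx4 had 2.

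The surroundings of the other unlooped genes also differed. Tbx1 was 35.6 kb from the nearest anchor, at the promoter of Sept5, with 17 anchors within 500 kb and 19 loops passing over it. Tbx20 was 375 kb from the nearest anchor, at Herpud2, with 2 anchors within 500 kb. Tbx18 was 596 kb from the nearest anchor, at Nt5e, with no anchor within 500 kb and no loop passing over it. Its start therefore lay in the emptiest stretch of the list among the 8 genes.

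**Figure D4:**
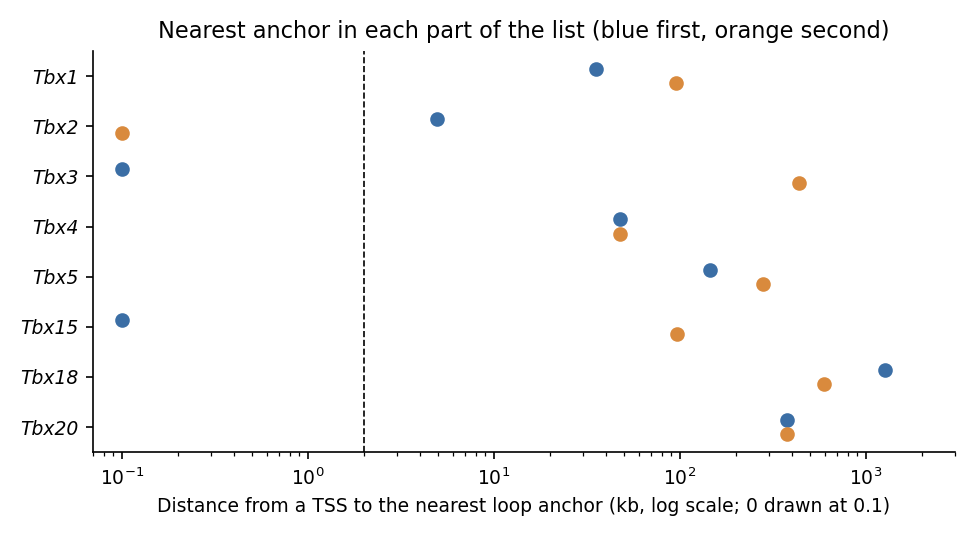
Distance in kb (log scale) from a TSS of each T-box gene to the nearest loop anchor in the first (blue) and the second (orange) part of the list, with a distance of 0 drawn at 0.1 and the 2 kb window as a dashed line. Tbx3 and Tbx15 had an anchor in the window in the first part and Tbx2 in the second. In the whole list, the nearest anchors of Tbx1, Tbx4, Tbx5, Tbx20 and Tbx18 were 35.6, 47.6, 144, 375 and 596 kb away.

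In base composition around their starts, looped and unlooped genes overlapped. In the window of 2 kb to each side of the 5′ end of the gene, Tbx3 held 221 CpG dinucleotides, Tbx2 held 228 and Tbx15 held 116. The looped Tbx15 anchor lay outside its window, at an internal TSS. It had 50.1 CpG per kb, against 29.0 in the window. Of the unlooped genes, Tbx18 held 239, Tbx1 163, Tbx5 106, Tbx20 105 and Tbx4 97, and the median of protein-coding genes was 86. MboI, the enzyme used to cut the chromatin, had 16 sites in the window of Tbx3 and 19 in that of Tbx18, the highest of the 8, and 5 in that of Tbx1, the lowest, against a median of 9. The window of Tbx18 had more CpG dinucleotides and more MboI sites than that of Tbx3, and no anchor. Whether CpG content or MboI sites bear on looping at these genes was not tested.

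The anchors of Tbx3 differed among themselves in base composition. The promoter anchor upstream of the TSS had 50.3 CpG per kb, the second anchor 36.8 and the third 22.2, against a median of 32.8 over all anchors (quartiles 18.8 and 45.6). The 3′ anchor had 38.4 CpG per kb, near the median. The Gm43782 anchor had 12.3 CpG per kb, and 12.7% of anchors had fewer, so the place reached over 795.2 kb was among the poorer in CpG. The third Tbx3 anchor had a single MboI site in 4.11 kb, where the median anchor had 5 in 2.59 kb.

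The T-box core motif AGGTGTGA, searched on both strands, was found in 1 of the 17 anchors of the family, against 10.5% of all anchors. The match lay on the plus strand at chr5:118246836-118246843, in the anchor at Rnft2 and 2410131K14Rik, shown with its flanking bases and the motif in capitals.
Motif in the Rnft2 anchor: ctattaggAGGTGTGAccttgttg
Among the 8 windows around the starts, that of Tbx15 held the motif, and 17.1% of the windows of protein-coding genes did. The looped Tbx15 anchor, which lay outside that window, did not hold it. RefSeq promoter sequences of 4 of the genes, Tbx1, Tbx4, Tbx18 and Tbx20, were at hand, and none of their 5 promoters held it, against 1.28% of 32851 promoters. No such sequences were at hand for Tbx2, Tbx3, Tbx5 and Tbx15.

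Other genes of the pathway gave a background for these scores, and differences between the lists were not tested. Over all protein-coding genes, 45.8% had a loop, 8.51% had a loop of at least 4 tags and the median loop score was 0 tags. Of 9 further T-box genes (T, Tbr1, Eomes, Tbx6, Tbx10, Tbx19, Tbx21, Tbx22 and Mga), 1 had a loop, Mga, with 1 tag, so Tbx3 had the highest score in the wider family as well. Of 30 partners and targets of T-box factors in limb and heart, 18 had a loop (60.0%), the median loop score was 1.5 tags and 4 had a loop of at least 4 tags. These were Cdkn1a, with a loop score of 22 tags, and Cdkn2a, with 8, which encode cell-cycle inhibitors repressed by Tbx2 and Tbx3, Shox2, a limb and sinus node homeobox gene, with 21, and Bmp4, a limb and heart growth factor, with 10. No loop joined a partner or target to a T-box gene.

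Other families of developmental factors were looped to differing degrees. Pax genes had a loop in 3 of 9 (33.3%) and a median score of 0 tags, and Irx genes in 5 of 6 (83.3%) with a median of 14. The share over all protein-coding genes was 45.8%. In the Irx family the score was spread over several genes, up to 19 tags at Irx3. All but 1 of its genes thus had a loop, while in the T-box family a single gene held 86 of 89 tags.

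**Figure D5:**
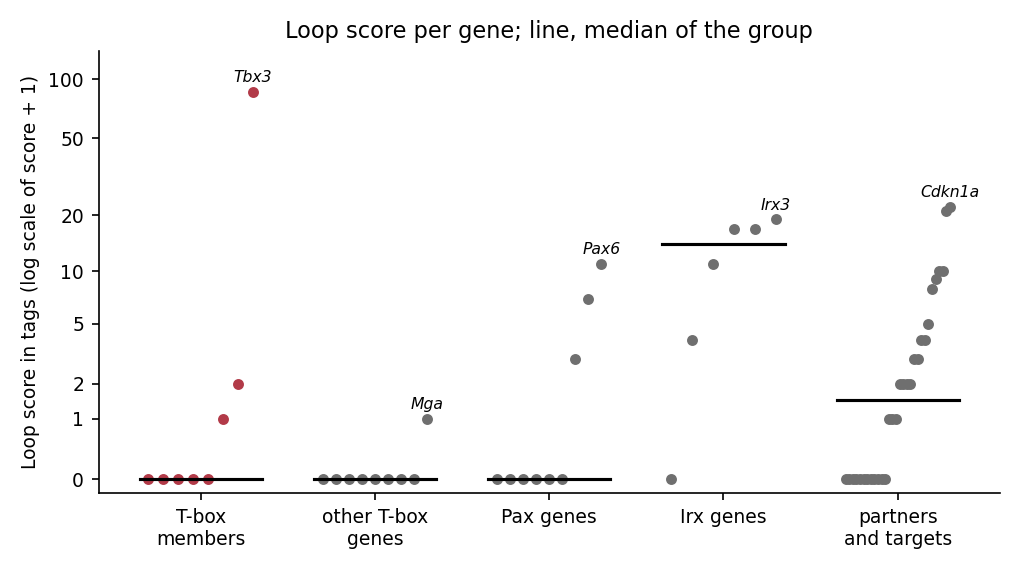
Loop score in tags, on a log scale of score + 1, for each gene of the T-box set, the other T-box genes, 2 further developmental families, and the partners and targets, with the median as a line and the highest gene named. Tbx3 at 86 tags is the highest of the T-box genes by a wide gap, and the medians of both T-box groups and of the Pax genes are 0.

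As a check of the labeled tissue, loops were counted at marker genes. Of 7 synovial sarcoma markers in the annotation, Tle1 had 4 tags and Epcam 1, and 5 had no loop. Skeletal muscle markers had a loop in 1 of 6 (Ckm, 2 tags), endothelial markers in 2 of 5 (Cdh5, 3 tags, and Tek, 1) and blood and macrophage markers in 0 of 5. Fibroblast markers had a loop in 1 of 4, Pdgfra, with 41 tags. The share of looped synovial sarcoma markers was 28.6%, against 40.0% of endothelial markers and 45.8% of protein-coding genes. Loop counts at these chosen markers therefore did not mark the tissue as SyS, and the shares were not tested. The markers left out Sox2, which the paper names with Tle1 as a highly expressed gene activated in sarcomagenesis. A Sox2 anchor had a loop of 6 tags over 824.3 kb. The share of tags at Tbx3 from cells other than tumor cells was not tested.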

How the data were processed

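H3K27ac HiChIP libraries of 2 hSS2 tumors were aligned by the authors to mm10 in HiC-Pro. Their loop calls, made in hichipper with Mango statistics, were merged over the tumors. The deposited list holds a raw count of paired-end tags per loop and the FDR that the authors' loop caller gave, a p-value adjusted for multiple testing, limited to 0.05 in the methods and to 0.01 in a figure legend of the study. The list reaches 0.05. How counts were merged is not stated. In depth, 41574 tags were spread over 24244 loops, and 78.0% of loops rest on 1 tag, so single loops are imprecise. ChIP-seq samples of the series were not used here.

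Anchors were assigned to a gene when any base lay within 2 kb of any of its TSSs in GENCODE vM21, and a loop score summed the tags. With 1 merged list no test was made. The members and gene lists were chosen with earlier results of these data known. Genes were named when they were members, lay at the distal anchor of a member's strongest loop or of one with at least 4 tags, or were neighboring members. Targets of weaker loops, genes at nearest anchors and list genes were named after their values were seen. Windows of 1 and 5 kb, RefSeq or protein-coding TSSs, FDR, tag and span limits, collapsed repeats, each part alone and resized anchors were tried, and leaving out Tbx3 was added after the values were seen. On simulated data, loops planted near a TSS were looked for with the same assignment rule. That checked the code only, and false assignment was not tested. The results of 1 further gene family and the bases of 1 further anchor are not reported here. Sequence was read from GRCm38.p6 of RefSeq. Python 3.11.15, pandas 2.3.3, scipy 1.17.1, pysam 0.24.0 and matplotlib 3.10.9 were used.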

Additional observations from a re-analysis of the deposited data

Results flagged for a closer look

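A pair of signals near T-box genes lay in loops that the promoter rule assigned to none of them. The first was a loop of 8 tags between the Gm43782 anchor and the 3′ anchor of Tbx3, with a span of 811.2 kb and an FDR listed as 0. It had the most tags of 1323 loops of like span in the first part of the list. Of 8539 loops of at least 700 kb in the whole list, 7 had at least 6 tags, and 3 of these ran from the Gm43782 anchor, to the 3′ anchor (8 tags), the third Tbx3 anchor (7) and the anchor upstream of the Tbx3 TSS (6). The other 4 were a pair of loops at Nfib (11 and 7 tags), 1 at Sox2 (6) and 1 between Zfp36l1 and Rad51b (6). In all, the Gm43782 anchor had 5 loops and 25 tags, of which 24 tags were in its 4 loops with the anchors in and around Tbx3.

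The second was an anchor inside the Tbx2 gene, chr11:85837479-85838863, which lay 4.93 kb from the TSS and outside the window. It had 4 loops and 6 tags, against 1 tag at the Tbx2 promoter, and these loops came from both parts of the list. The strongest, with 3 tags and an FDR of 0.0367, reached 161.9 kb upstream to an anchor without a TSS. Single tags reached Gm23564, the promoter of Rps6kb1 and Tubd1, and that of Brip1. There were no control samples for the HiChIP, and neither signal was tested. The 6 tags of the anchor inside Tbx2 are a sum over its 4 loops.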

How the results depend on the processing

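With a window of 1 kb, repeated loops collapsed or anchors resized to 4 kb, the 3 looped genes, 17 loops, 89 tags and the share of 66.7% had the same values. An FDR under 0.01 or under 0.001, at least 2 tags and at least 4 tags each left 1 looped gene, Tbx3, with 7, 6, 8 and 5 loops respectively. The second part of the list alone gave 1 looped gene (Tbx2), 1 loop, 1 tag and a share of 0%, which is of 1 anchor. Under the other alternatives the share ran from 50%, as with protein-coding transcripts (6 of 12 anchors), to 80% with the window of 5 kb (12 of 15). Without Tbx3 there were 3 loops and 3 tags. Outside the second part alone, where it was 0, the loop score of Tbx3 was between 64 tags (FDR under 0.001) and 94 (window of 5 kb). With the window of 5 kb Tbx2 had 7 tags. Loops up to 1 Mb left Tbx15 with 0. The 5 unlooped genes had 0 under every alternative listed in the processing.

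No paired analysis was possible because the list holds no values per tumor. The 2 tumors cannot be told apart in it, the first part gave all tags of Tbx3, and single-tag loops, 9 of the 17, have no precision of their own. H3K27ac selects the contacts seen, and the list holds only called loops. A place without a loop may lack the mark, the contact or the tags needed for a call, which cannot be told apart here.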
